A study of Mus musculus with 51 samples.

Results

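The FGF ligand and receptor genes followed here were 10 genes taken by symbol from the 24538 genes listed in each RNA-seq table of the series. They were 6 ligand genes (*Fgf3*, *Fgf4*, *Fgf5*, *Fgf8*, *Fgf15* and *Fgf17*) and the 4 receptor genes *Fgfr1*, *Fgfr2*, *Fgfr3* and *Fgfr4*, and every one of them was found in all 9 tables. Their expression was followed while mouse ES cells were differentiated with Bmp4 towards cardiac mesoderm, and in cells lacking *Smad4*, *Eomes*, *T* or both *Eomes* and *T*.

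FGF ligands are secreted proteins that, together with heparan sulfate, bind and pair receptor tyrosine kinases, which then switch on the RAS-ERK cascade. ERK activity in turn induces genes such as *Dusp6*, *Spry4* and *Etv5*, several of which dampen the pathway. In the early mouse embryo *Fgf4* is a ligand of pluripotent cells, *Fgf5* marks the epiblast, and *Fgf8* is made in the primitive streak, where it and the receptor *Fgfr1* are needed for mesoderm cells to leave the streak.

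The WT time course was made with F1G4 cells, in the ES state before Bmp4 and on days 1, 2 and 3 in medium with 20 ng/ml Bmp4 on fibronectin. The labels give 2 samples for each of these stages. *Eomes* KO and *T* KO cells were derived from F1G4 cells by CRISPR/Cas9 deletions around the promoter and first exon, and the *Eomes*/*T* dKO line was made from the *Eomes* KO cells by adding the *T* deletion. These 3 KO lines were sampled on days 2 and 3 in the same Bmp4 medium. *Smad4* KO cells came from a different ES cell line (129S/SvEvxC57BL/6) with conditional *Smad4* alleles, by transient Cre that removed the first exon, and they and their own undeleted WT cells (below, Smad4-line WT) were sampled on days 1 and 2. Feeder fibroblasts had been taken out of all cultures before Bmp4 was given, and the KO lines were grown from single clones.

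Expression was given as FPKM, the fragments of a gene scaled to transcript length and library size. Each of the 14 conditions has a single FPKM value per gene, pooled by the authors, so there is no replicate spread, no depth and no test behind any difference given below. Genes that passed FPKM 1 in either of the groups compared were examined, and those with a log2 ratio beyond 1 in size, upwards or downwards, were called DE, which is the authors' own rule. As a measure of how far cells without a KO differ, the WT cells of the 2 lines were set against each other. On day 2 the central 90% of their log2 ratios (percentiles 5 to 95) ran from −0.43 to 0.41 in the most highly expressed of 10 groups of genes and from −1.93 to 1.17 in the lowest. On day 1 these 2 ranges were −0.54 to 0.80 and −1.78 to 2.42. In bulk RNA, fewer cells expressing a gene cannot be told apart from less RNA per cell.

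The stages carried the markers of their labels. The summed FPKM of 9 pluripotency and epiblast genes went from 2044 in ES cells to 728 on day 3 of the WT course, and that of 10 nascent mesoderm genes from 1.94 to 455. Of the pluripotency sums 1002 and 465 FPKM were *Pou5f1* alone, and of the 455 FPKM 320 were *T*. By the DE rule, 7 of the 9 pluripotency and epiblast genes were lower on day 3 and 0 higher. All 9 examined mesoderm genes were higher. The 6 endoderm genes together reached no more than 5.36 FPKM in any condition. *Eomes* stood at 0.276 FPKM in *Eomes* KO cells and at 19.4 FPKM in WT cells on day 3, and *T* at 3.00 FPKM in *T* KO cells and at 320 FPKM in WT cells. On day 2 the gap was smaller, with *Eomes* at 2.42 FPKM in *Eomes* KO and 9.50 FPKM in WT cells and *T* at 6.64 FPKM in *T* KO and 43.5 FPKM in WT cells. In dKO cells *Eomes* stood at 1.24 and 0.346 FPKM and *T* at 2.77 and 1.93 FPKM on days 2 and 3. The gene left intact in each single KO line also differed from WT cells. *T* stood at 22.3 and 4.46 FPKM in *Eomes* KO cells on days 2 and 3. *Eomes* stood at 24.7 and 4.83 FPKM in *T* KO cells on these days. *Smad4* was not lower in *Smad4* KO cells (39.4 FPKM on day 1 and 46.8 FPKM on day 2) than in their WT cells (33.8 and 39.3 FPKM). Since the deletion takes out only the first exon and FPKM covers the whole gene, this value does not check the *Smad4* label.

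During WT differentiation the leading ligand gene changed from *Fgf4* to *Fgf8*. *Fgf4* started at 71.0 FPKM in ES cells and was lower at every later stage, with 40.8, 11.2 and 3.16 FPKM on days 1, 2 and 3. *Fgf8* ran the other way, from 0.0172 FPKM in ES cells and 0.151 on day 1 to 13.7 on day 2 and 55.3 on day 3. *Fgf5* lay between them, at 0.809 FPKM in ES cells and 8.39, 11.5 and 26.0 FPKM on days 1, 2 and 3. FPKM is scaled to transcript length, and the shares below set the ligand genes against each other on that scale. Other differences between the genes, such as GC content (62.8% for *Fgf8* and 50.8% for *Fgf4*), were not adjusted for in these shares. *Fgf4* made up 83.4% of the summed FPKM of the 6 ligand genes in ES cells and 3.50% on day 3, while *Fgf8* went from 0.0202% to 61.2% and *Fgf5* from 0.951% to 28.8%. On day 2 the 3 genes were nearly level, with *Fgf4* at 27.1%, *Fgf5* at 27.8% and *Fgf8* at 33.0% of the sum.

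**Figure D1:**
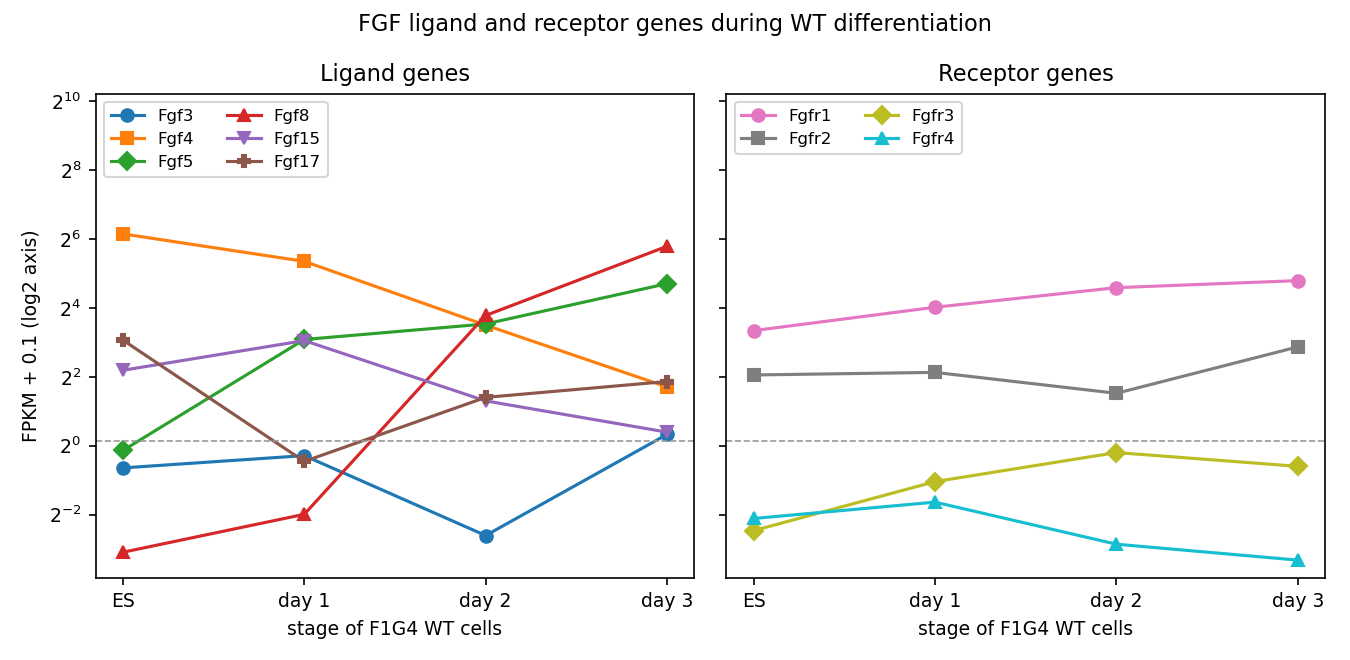
FPKM + 0.1 (y axis, log2 scale) of the 6 ligand genes (left) and the 4 receptor genes (right) in F1G4 WT cells at the 4 stages (x axis), 1 pooled value per point, with the examination limit of FPKM 1 dashed. *Fgf4* falls from 71.0 to 3.16 FPKM while *Fgf8* climbs from 0.0172 to 55.3 FPKM, and *Fgfr1* lies above the other receptor genes at every stage.

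The remaining ligand genes were low. *Fgf15*, which codes for a ligand of the endocrine FGF branch, stood at 4.47 FPKM in the ES state and at 8.20, 2.37 and 1.21 FPKM on days 1, 2 and 3. *Fgf17*, which codes for a close relative of Fgf8, started at 8.28 FPKM in ES cells, dropped to 0.629 on day 1 and returned to 2.55 and 3.54 FPKM on days 2 and 3. *Fgf3* passed FPKM 1 only on day 3 (1.16 FPKM), after 0.540, 0.719 and 0.0641 FPKM at the earlier stages. *Fgf17* was thus the only one of the 6 ligand genes with its lowest WT value on day 1, and *Fgf15* the only one with its highest there.

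*Fgf3*, *Fgf4* and *Fgf15* lie side by side on mouse chromosome 7 (GRCm38), within 62.3 kb. *Fgf3* spans 7:144838612-144843348, *Fgf4* 7:144861386-144865245 and *Fgf15* 7:144896532-144900953. The only other RefSeq gene in this stretch is the long non-coding RNA gene *Gm26793* (7:144894121-144899688), which overlaps *Fgf15*, and how reads in the overlap were assigned is not given in the sources used here. The 3 neighbours did not share one course in WT cells, with the highest value of *Fgf4* in ES cells, that of *Fgf15* on day 1 and that of *Fgf3* on day 3. *Fgf5* (5:98254184-98277033), *Fgf8* (19:45736491-45742941) and *Fgf17* (14:70636203-70642268) lie on chromosomes of their own.

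RefSeq (GRCm38.p6) upstream windows were given for 6 of the 10 genes, namely *Fgf3*, *Fgf4*, *Fgf5*, *Fgfr2*, *Fgfr3* and *Fgfr4*. The 250 bases before the start of *Fgf4* (chr7:144861136-144861385, + strand) and *Fgf5* (chr5:98253934-98254183, + strand) are shown, since these ligand genes moved in opposite directions over the WT course and no GENCODE exon overlaps either window. Capitals mark the letters found among 3 motifs searched on both strands: TCACACC, the core bound by T-box factors such as Eomes and T, CTTTGAT, bound by TCF/LEF factors, and GGCGCC, a GC-rich element bound by SMAD proteins, none of which overlapped another here.
Fgf4: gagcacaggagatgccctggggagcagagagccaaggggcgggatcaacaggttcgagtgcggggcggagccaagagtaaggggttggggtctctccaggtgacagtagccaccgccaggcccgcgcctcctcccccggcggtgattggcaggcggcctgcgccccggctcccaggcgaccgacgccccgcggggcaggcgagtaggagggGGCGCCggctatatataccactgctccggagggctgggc
Fgf5: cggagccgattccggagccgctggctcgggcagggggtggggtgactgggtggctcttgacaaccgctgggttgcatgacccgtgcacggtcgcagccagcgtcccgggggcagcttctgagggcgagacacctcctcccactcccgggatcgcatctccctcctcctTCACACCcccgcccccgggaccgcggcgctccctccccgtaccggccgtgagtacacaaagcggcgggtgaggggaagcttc
Both windows are rich in G and C, at 71.2% for *Fgf4* and 70.8% for *Fgf5*. The *Fgf5* window holds TCACACC with its first base 82 bases before the start, and the *Fgf4* window holds GGCGCC with its first base 39 bases before it. Of 32851 such windows in the table, 3.33% hold the T-box letters, 3.21% the TCF/LEF letters and 9.59% the SMAD letters, on either strand. These shares were not taken at matched GC content, and GGCGCC is made of G and C alone. Of the windows not shown, those of *Fgfr3* hold GGCGCC, and those of *Fgf3*, *Fgfr2* and *Fgfr4* hold none of the 3 motifs. These are matches of letters only.

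*Fgfr1*, the receptor gene needed in the streak, was the leading receptor gene at every stage. In WT cells it stood at 10.0 FPKM in the ES state and at 16.1, 24.0 and 27.6 FPKM on days 1, 2 and 3, and was so higher at each stage than at the one before, which held for none of the other receptor genes. *Fgfr2* stood at 4.05, 4.28, 2.77 and 7.21 FPKM at these stages. *Fgfr3* stayed below FPKM 1 (0.0811 to 0.771 FPKM) and *Fgfr4* at or below 0.221 FPKM, with a listed value of 0 on day 3. *Fgfr1* thus supplied 70.2% of the summed receptor FPKM in ES cells, 87.0% on day 2 and 78.1% on day 3. These genes lie at 8:25518759-25575718 (*Fgfr1*), 7:130162451-130266808 (*Fgfr2*), 5:33721724-33737068 (*Fgfr3*) and 13:55152818-55168759 (*Fgfr4*).

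By the DE rule, 2 of the 6 examined FGF genes changed from ES cells to day 1 (13.5% of all examined genes did), 4 of 7 from day 1 to day 2 (11.3%), and 5 of 8 from day 2 to day 3 (10.2%). Between ES cells and day 3, 7 of 8 examined FGF genes were DE, against 31.1% of all examined genes. The genes behind these counts were *Fgf5* up (log2 ratio 3.37) and *Fgf17* down (−3.72) on day 1. On day 2 *Fgf8* (6.50) and *Fgf17* (2.02) were up and *Fgf4* (−1.86) and *Fgf15* (−1.79) down. On day 3 *Fgf3* (4.17), *Fgf8* (2.02), *Fgf5* (1.18) and *Fgfr2* (1.38) were up against day 2 and *Fgf4* (−1.83) was down. Over the whole course, *Fgf8* (11.65), *Fgf5* (5.01), *Fgfr1* (1.46) and *Fgf3* (1.10) were up on day 3 against ES cells and *Fgf4* (−4.49), *Fgf15* (−1.88) and *Fgf17* (−1.23) down. The median log2 ratio of all 10 genes from ES cells to day 3, with a pseudocount of 0.1, was 0.89, and that of all examined genes −0.02. The first of these takes in *Fgfr3* and *Fgfr4*, which were not examined.

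Other pathway genes were read from fixed lists. Of 12 further ligand genes only *Fgf18* was examined at day 3 against day 2, where it rose from 0.208 to 1.12 FPKM (log2 ratio 2.43). Of 25 co-receptor, decoy receptor and heparan sulfate genes, 21 were examined between ES cells and day 3, and 10 were higher and 0 lower (18.5% and 12.6% of all examined genes). They included *Gpc6* (4.73) and *Gpc3* (2.45), which code for heparan sulfate carriers, *Fgfbp3* (3.41), which codes for an FGF carrier protein, and the decoy receptor gene *Fgfrl1* (1.35). The RAS-ERK cascade moved little, with 1 of 18 examined genes higher (*Sos2*, 1.18) and 2 lower (*Gab1*, −1.79, and *Sos1*, −1.01). The 16 ERK feedback and target genes split, with 5 higher on day 3 than in ES cells and 3 lower. Those higher were led by *Dusp5* (2.26), *Dusp4* (1.54) and *Il17rd* (1.45), and those lower were *Etv4* (−3.20), *Spry4* (−2.15) and *Etv5* (−1.80). The median log2 ratio over the examined genes was 0.92 for the co-receptor list, 0.01 for the cascade and −0.07 for the feedback list.

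In cells without *Smad4*, which codes for the shared partner of the SMAD proteins that carry BMP and Nodal signals, *Fgf8* was near 0 on both days. On day 2 *Fgf8* stood at 0.154 FPKM in *Smad4* KO cells and at 19.8 FPKM in Smad4-line WT cells, a log2 ratio of −7.01. This KO value was the same to 2 digits as the 0.151 FPKM of F1G4 WT cells on day 1. On day 1 *Fgf8* was below FPKM 1 in both (0.0416 in the KO and 0.783 in WT cells) and was not examined. *Fgf17* was also lower in *Smad4* KO cells, at 0.844 against 1.81 FPKM on day 1 (log2 ratio −1.10) and 0.875 against 2.36 FPKM on day 2 (−1.43). Both ratios lay inside the central 90% of those between the WT lines at that level, on day 1 and on day 2, and neither was DE with a pseudocount of 1 (−0.61 and −0.84) or a minimum of FPKM 5.

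*Fgf5* went the other way in these cells. It reached 17.9 FPKM in *Smad4* KO cells on day 1 against 3.40 FPKM in WT cells, a log2 ratio of 2.39. On day 2 it stood at 37.7 FPKM in the KO, the highest *Fgf5* value of all 14 conditions, and at 23.9 FPKM in WT cells, which was not DE (0.66). *Fgf5* made up 76.0% of the summed ligand FPKM in *Smad4* KO cells on day 2 and 42.9% in WT cells. *Fgf4* (7.44 against 5.76 FPKM) and *Fgf15* (3.33 against 3.74 FPKM) were not DE on that day.

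Among the receptors, *Fgfr2* was DE in *Smad4* KO cells on day 2, at 16.3 FPKM against 6.19 FPKM (log2 ratio 1.40), after nearly equal values on day 1 (7.89 against 7.64 FPKM). *Fgfr1* differed little on either day, with log2 ratios of 0.28 and 0.13. In the KO on day 2, *Fgfr2* made up 43.1% of the summed receptor FPKM, its highest share in any condition, and *Fgfr1* 54.8%. In all, 2 of 6 examined FGF genes were DE on day 1 (4.77% of all examined genes) and 3 of 7 on day 2 (5.77%). The summed FPKM of the nascent mesoderm markers was 4.50 in *Smad4* KO and 112 in WT cells on day 2, and that of 7 neural markers 77.6 and 33.0. Of the neural sums 58.1 and 30.0 FPKM were *Nes* alone, which also stood at 26.3 FPKM in F1G4 WT cells on day 2. The part of these markers in the FGF values was not tested.

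Of 16 examined ERK feedback and target genes, 0 were DE in *Smad4* KO cells on day 1 and 1 on day 2. Of all examined genes 4.77% and 5.77% were, so these counts do not set the list apart. The gene on day 2 was *Il17rd*, which codes for a membrane inhibitor of FGF signalling (6.13 against 14.4 FPKM, log2 ratio −1.23). *Dusp6*, which codes for an ERK phosphatase, stood at 35.0 FPKM in KO and 37.3 FPKM in WT cells. *Hs6st2*, a heparan sulfate sulfotransferase gene, was lower on day 2 (4.12 against 12.8 FPKM, log2 ratio −1.63), and *Sdc2*, a syndecan gene, higher on day 1 (8.87 against 4.36 FPKM, log2 ratio 1.03). No gene of the RAS-ERK cascade list was DE on either day (18 and 17 examined), which is also near these shares of all genes.

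*Eomes*, *T* and dKO cells were compared with F1G4 WT cells, and the same WT column of each day entered all 3 comparisons, with factors of 0.989 to 1.04 between tables. The WT values below are those of the table of each KO. Since the comparisons share this control, a WT value that lay off would move all 3 together.

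*Fgf8* was lower in all 3 KO lines on both days and was DE each time. On day 2 it stood at 2.38 FPKM in *Eomes* KO cells, 7.04 in *T* KO cells and 3.47 in dKO cells, against 13.6, 14.2 and 13.6 FPKM in the WT columns. The log2 ratios were −2.52, −1.01 and −1.97. On day 3 it stood at 1.24 FPKM in *Eomes* KO cells against 57.6 in WT cells (log2 ratio −5.54), at 16.8 against 55.7 FPKM in *T* KO cells (−1.73) and at 10.5 against 57.4 FPKM in dKO cells (−2.45). *Fgf8* was thus higher on day 3 than on day 2 in WT, *T* KO and dKO cells and lower in *Eomes* KO cells. The dKO line, which carries the *Eomes* deletion as well, had a higher *Fgf8* value than the *Eomes* KO line on both days, and this difference has no replicate check. On day 3 *T* was low in *Eomes* KO cells too, at 4.46 FPKM against 1.93 in dKO and 320 in WT cells. The day 2 value in *T* KO cells lay just past the limit, and it was not DE on the TPM scale (log2 ratio −0.89) or with the trend by transcript length removed (−0.82).

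**Figure D2:**
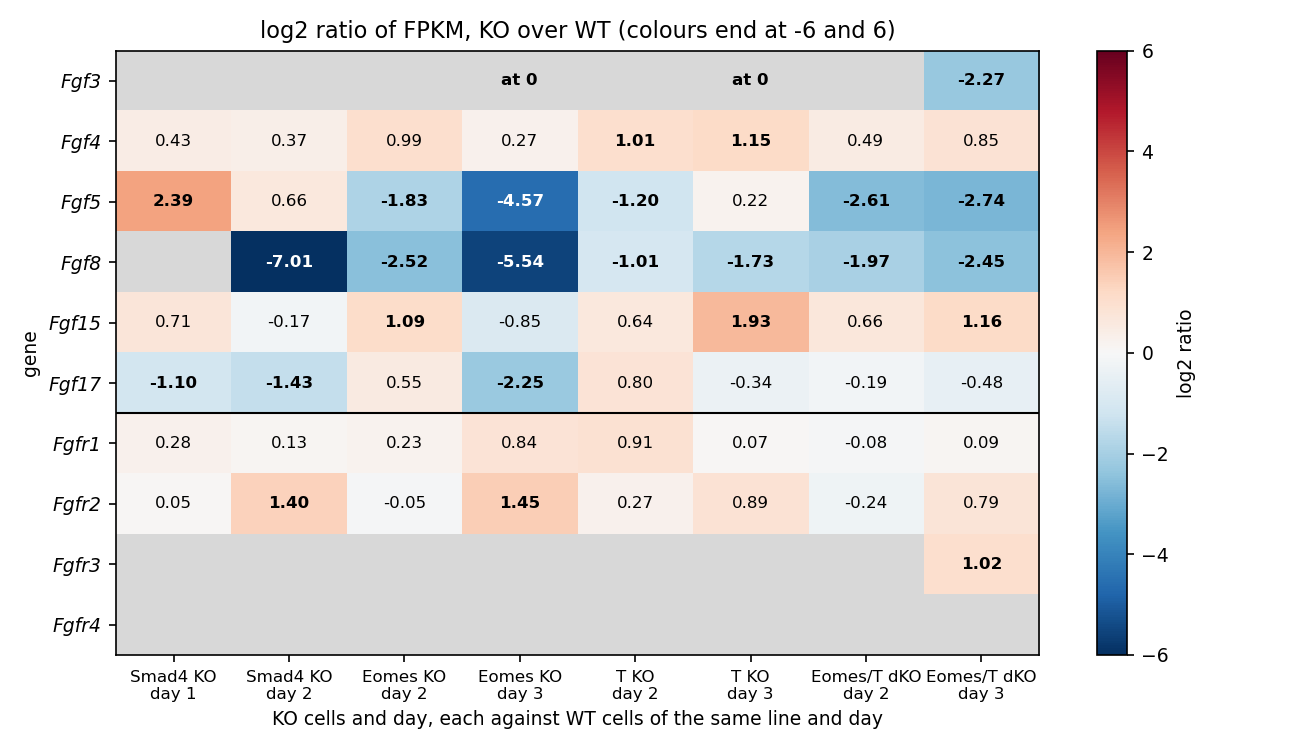
Log2 ratio of FPKM, KO over WT, for the 10 FGF genes (rows, ligand genes above the line) in the 8 comparisons (columns). Bold values were DE, grey cells were not examined because both values were at or below FPKM 1, and "at 0" marks *Fgf3* listed at 0 in the KO and above FPKM 1 in WT cells. *Fgf8* is negative wherever it was examined, down to −7.01 in *Smad4* KO cells on day 2.

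*Fgf5* was lower in *Eomes* KO and dKO cells on both days. It stood at 3.21 FPKM in *Eomes* KO cells on day 2 against 11.4 in WT cells (log2 ratio −1.83) and at 1.15 against 27.1 FPKM on day 3 (−4.57). In dKO cells it stood at 1.87 against 11.4 FPKM on day 2 (−2.61) and 4.05 against 27.0 FPKM on day 3 (−2.74). *T* KO cells differed from both, since *Fgf5* was lower on day 2 (5.20 against 11.9 FPKM, log2 ratio −1.20) and 30.6 FPKM against 26.2 FPKM on day 3, which was not DE (0.22). *Fgf5* was thus DE downwards in each of the 3 lines on day 2, and it was DE upwards in *Smad4* KO cells on day 1.

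*Fgf4* and *Fgf15* lay above WT in most of these columns. *Fgf4* was DE only in *T* KO cells, at 23.4 against 11.6 FPKM on day 2 (log2 ratio 1.01) and 7.10 against 3.19 FPKM on day 3 (1.15), both lost with a pseudocount of 1 (0.95 each). It stood just under the limit in *Eomes* KO cells on day 2, at 22.2 against 11.1 FPKM (0.99). *Fgf15* was DE in *Eomes* KO cells on day 2 (5.00 against 2.35 FPKM, 1.09), in *T* KO cells on day 3 (4.66 against 1.23 FPKM, 1.93) and in dKO cells on day 3 (2.82 against 1.26 FPKM, 1.16). The call in *Eomes* KO cells was lost on the TPM scale (0.87) and with a pseudocount of 1 (0.84), and that in dKO cells with a pseudocount of 1 (0.75). In *Eomes* KO cells on day 3 it was 0.703 FPKM, its lowest value in the series.

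*Fgf17* was DE in 1 of these 6 comparisons, on day 3 in *Eomes* KO cells (0.777 against 3.69 FPKM, log2 ratio −2.25). In *T* KO and dKO cells on that day it stood at 2.82 and 2.64 FPKM, with log2 ratios of −0.34 and −0.48. *Fgf3*, at 1.17 to 1.20 FPKM in the WT columns of day 3, was listed at 0 in *Eomes* KO and *T* KO cells and stood at 0.248 FPKM in dKO cells (−2.27). Its WT value lies so close to the limit of FPKM 1 that these calls rest on it.

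**Figure D3:**
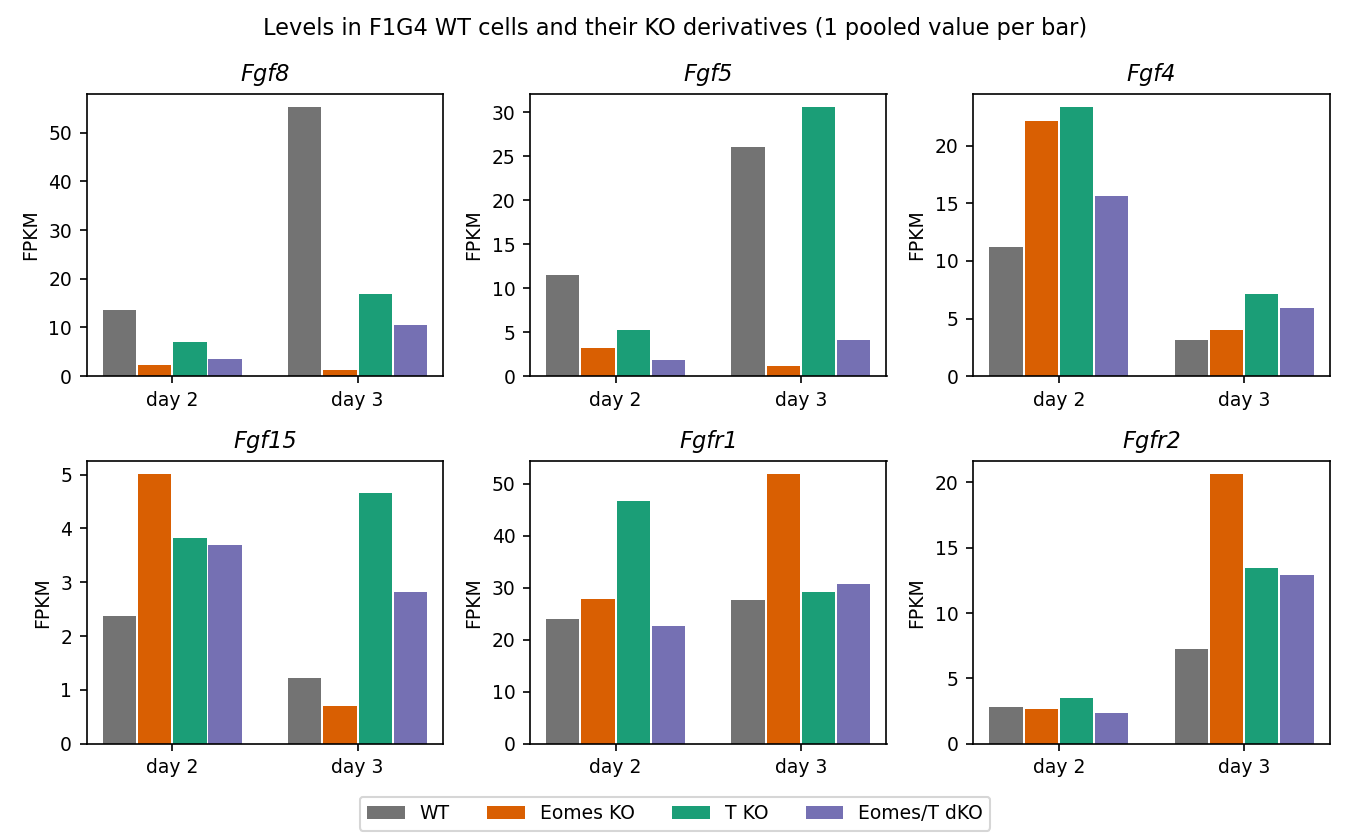
FPKM (y axis, from 0) of *Fgf8*, *Fgf5*, *Fgf4*, *Fgf15*, *Fgfr1* and *Fgfr2* on days 2 and 3 in F1G4 WT cells and the 3 KO lines made from them, with 1 pooled value per bar and the WT values of the time course. *Fgf8* is higher on day 3 than on day 2 in every line but the *Eomes* KO, and *Fgfr2* is highest in *Eomes* KO cells on day 3 at 20.6 FPKM.

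The receptor genes were not lower in any of these lines beyond the limit. *Fgfr2* was DE in *Eomes* KO cells on day 3, at 20.6 FPKM against 7.52 FPKM (log2 ratio 1.45), and it stood at 13.5 and 12.9 FPKM in *T* KO and dKO cells (0.89 and 0.79, not DE). On day 2 its values were 2.66, 3.46 and 2.33 FPKM in these lines and 2.75 to 2.87 FPKM in the WT columns. *Fgfr1* was not DE in any of the 8 KO comparisons, and its highest values were 51.7 FPKM in *Eomes* KO cells on day 3 (0.84) and 46.7 FPKM in *T* KO cells on day 2 (0.91). In these 2 comparisons log2 ratios over all genes also moved with transcript properties, since the medians of 20 groups of genes spanned 0.64 by length in the first and 0.41 by GC content in the second. With the GC trend removed the *Fgfr1* values were 0.82 and 0.84, and with the length trend removed 0.76 and 0.83. The widest such span was 0.96, by length in dKO cells on day 2, where *Fgf8* had a log2 ratio of −2.33 and *Fgf5* of −2.70 with the trend removed. *Fgfr3* was DE once, in dKO cells on day 3 (1.18 against 0.581 FPKM, 1.02), a call lost on the TPM scale (0.91), and *Fgfr4* was highest at 0.221 FPKM, in WT cells on day 1.

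By count, 3 of 7 examined FGF genes were DE in *Eomes* KO cells on day 2 (7.52% of all examined genes) and 5 of 8 on day 3 (16.4%). In *T* KO cells they were 3 of 7 on day 2 (15.6%) and 4 of 8 on day 3 (6.04%), and in dKO cells 2 of 7 (7.99%) and 5 of 9 (11.0%). The median log2 ratio of the 6 ligand genes in *Eomes* KO cells on day 3, with a pseudocount of 0.1, was −2.91, that of the 4 receptor genes 0.51 and that of all examined genes −0.04. These FGF medians take in every member, with *Fgf3* listed at 0 in the KO and *Fgfr3* and *Fgfr4* not examined. In *T* KO cells on day 3 the ligand median was −0.05, and in dKO cells −1.18. Of 9 examined nascent mesoderm markers, a list that holds *T* and *Eomes* themselves, 8 were lower and 1 higher on day 3 in *Eomes* KO cells, and 7 were lower and 0 higher in *T* KO and in dKO cells. *Mesp1* was listed at 0 in all 3 lines. The marker that was higher was *Hand1*, at 62.9 against 21.4 FPKM. The summed FPKM of the list was 455 in WT cells, of which 320 was *T*, and 91.6 in *Eomes* KO, 67.7 in *T* KO and 83.6 in dKO cells. The summed FPKM of 10 fibroblast markers was 11.8 in *Eomes* KO cells on day 3 and 0.875 to 7.30 in the other 13 conditions. The part of these markers in the FGF values was not tested.

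Summed over the 6 genes, ligand FPKM on day 3 was 90.4 in WT cells, 62.0 in *T* KO cells, 26.2 in dKO cells and 7.86 in *Eomes* KO cells. Of the WT sum 61.2% was *Fgf8*, while *Fgf5* led in *T* KO cells (49.4%), *Fgf8* in dKO cells (40.0%) and *Fgf4* in *Eomes* KO cells (50.9%). On day 2 the sums lay closer together, at 41.4 FPKM in WT, 44.1 in *T* KO, 36.9 in *Eomes* KO and 27.2 in dKO cells, and *Fgf4* supplied more than any other gene in all 3 KO lines (53.0% to 60.1%). Receptor FPKM on day 3 was lowest in WT cells (35.4) and highest in *Eomes* KO cells (73.0), with *T* KO (43.4) and dKO cells (44.9) close together. These sums were not scaled to the summed FPKM of all genes. That total ran from 400830 in *Eomes* KO cells on day 3 to 607878 in dKO cells on day 2.

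Among the ERK feedback and target genes, 7 of 16 examined were lower and 0 higher in *Eomes* KO cells on day 3 (9.01% and 7.39% of all examined genes), with a median log2 ratio of −0.80. *Spry4*, which codes for an inhibitor of receptor tyrosine kinase signalling, stood at 0.767 FPKM against 6.31 FPKM in WT cells (log2 ratio −3.04). *Dusp6* stood at 11.7 against 71.7 FPKM (−2.62) and *Dusp5*, another phosphatase gene, at 2.55 against 13.4 FPKM (−2.39). *Spry2* (−2.34), *Dusp4* (−2.31), *Il17rd* (−2.14) and *Etv5* (−1.35) were the other 4. *Cbl*, *Dusp7* and *Spred2*, which were not DE, had their highest day 3 value of the 4 lines in these cells (8.17, 4.39 and 5.01 FPKM).

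In dKO cells on day 3, 5 of the 16 were lower and 0 higher (5.53% and 5.51% of all examined genes), namely *Dusp4* (−1.88), *Dusp6* (−1.48), *Spry4* (−1.47), *Il17rd* (−1.18) and *Etv5* (−1.06), and the median was −0.41. In *T* KO cells on day 3 only *Dusp4* was lower (12.7 against 25.7 FPKM, −1.02), and *Spry4* was 7.45 FPKM against 6.07 FPKM in WT cells of the time course. On day 2, 5 of 16 were higher in *T* KO cells (5.70% of all examined genes), among them *Dusp5* (1.50), *Etv4* (1.41) and *Etv1* (1.26), and *Dusp5* alone was higher in *Eomes* KO (1.85) and dKO cells (1.44). *Dusp6* on day 2 was 81.1 FPKM with *Eomes* deleted, 100.1 FPKM with *T* deleted, 73.2 FPKM with both deleted and 63.5 FPKM in WT cells. The order of the 4 lines by *Dusp6* was that of the ligand sums on day 3 and another on day 2.

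**Figure D4:**
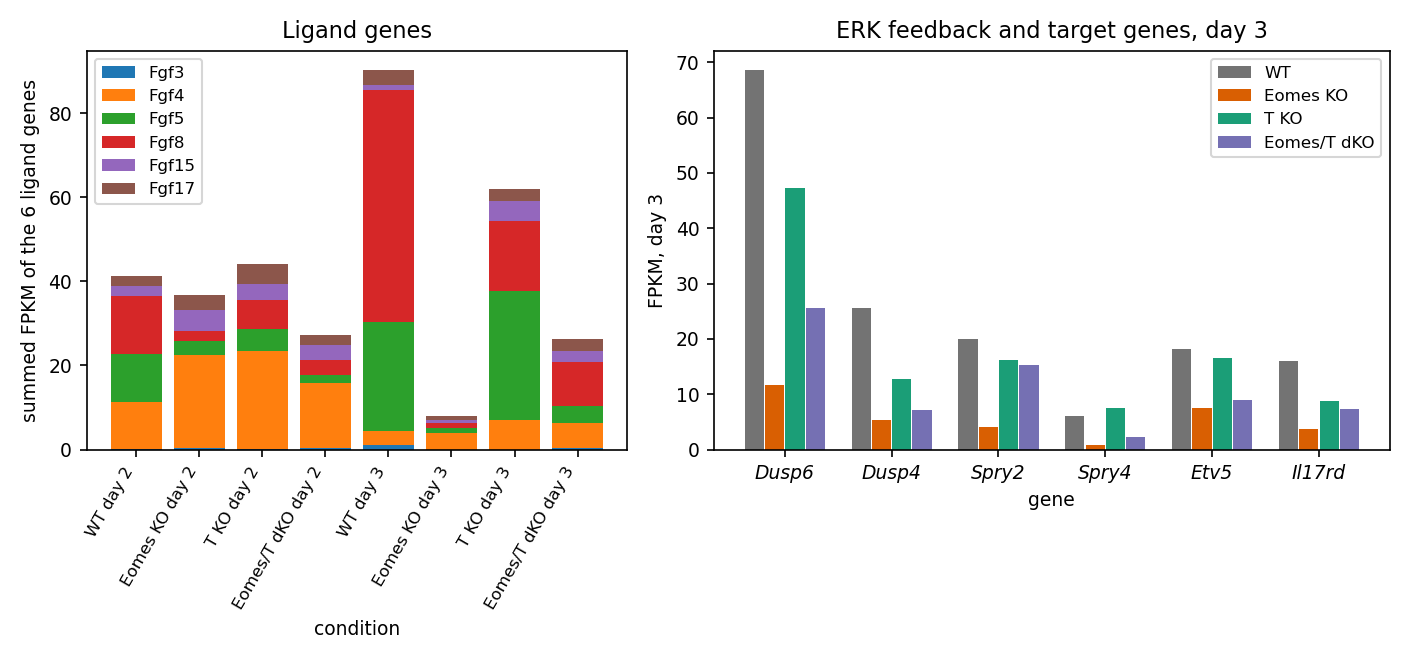
Left, FPKM of the 6 ligand genes stacked (y axis, from 0) on days 2 and 3 in WT cells and the 3 KO lines. Right, FPKM on day 3 in the same lines of 6 of the 7 ERK feedback and target genes that were lower in *Eomes* KO cells, 1 pooled value per bar. *Eomes* KO cells on day 3 have the lowest ligand sum (7.86 FPKM) and the lowest bar for each of the 6 feedback genes.

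Further DE genes came from the other pathway lists. In the RAS-ERK cascade, *Map2k1* was lower in dKO cells on day 3 (29.6 against 63.1 FPKM, log2 ratio −1.09). In *T* KO cells on day 2, 4 of 18 were lower (9.93% of all examined genes), among them *Grb2* (−2.10), *Mapk3* (−1.24) and *Ptpn11* (−1.16). Among co-receptor and heparan sulfate genes, *Sulf1*, which codes for a heparan sulfate sulfatase, was lower in *Eomes* KO cells on day 3 (18.7 against 49.7 FPKM, −1.41). *Gpc3* was lower in *T* KO (18.8 against 50.7 FPKM, −1.43) and dKO cells (25.7 against 52.2 FPKM, −1.02). *Fgfbp1*, which codes for an FGF carrier protein, was higher in *T* KO cells on day 3 (144.5 against 56.5 FPKM, 1.35). *Fgf18* was lower on day 3 in *Eomes* KO (0.129 against 1.16 FPKM, −3.17) and dKO cells (0.321 against 1.16 FPKM, −1.85). Among the 4 intracellular FGF homologous factor genes, which share the FGF name and do not act through these receptors, *Fgf13* was lower on day 2 in *Eomes* KO (−1.09), *T* KO (−2.03) and dKO cells (−1.07).

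The WT cells of the 2 lines, of which the Smad4 line carries conditional *Smad4* alleles, did not have the same FGF gene levels on the same day. On day 1, 4 of 6 examined FGF genes were DE between Smad4-line WT and F1G4 WT cells (11.1% of all examined genes), after scaling both tables to a common median. *Fgf4* was 9.17 FPKM in the Smad4 line and 40.8 in F1G4 cells (log2 ratio −2.10), *Fgf15* 2.48 and 8.20 (−1.67) and *Fgf5* 3.40 and 8.39 (−1.25). *Fgf17* was higher in the Smad4 line, at 1.81 and 0.629 FPKM (1.57). On day 2, 2 of 7 were DE (5.08%), *Fgf5* at 23.9 and 11.5 FPKM (1.07) and *Fgfr2* at 6.19 and 2.77 FPKM (1.17). *Fgf8* was already 0.783 FPKM on day 1 in the Smad4 line against 0.151 FPKM in F1G4 cells, and on day 2 the values were 19.8 and 13.7 FPKM (0.55). Within the Smad4 line, 2 of 7 examined FGF genes were DE from day 1 to day 2 (8.30%), *Fgf8* (4.63) and *Fgf5* (2.78), both upwards. The line and the separate preparation of its samples cannot be told apart.

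**Figure D5:**
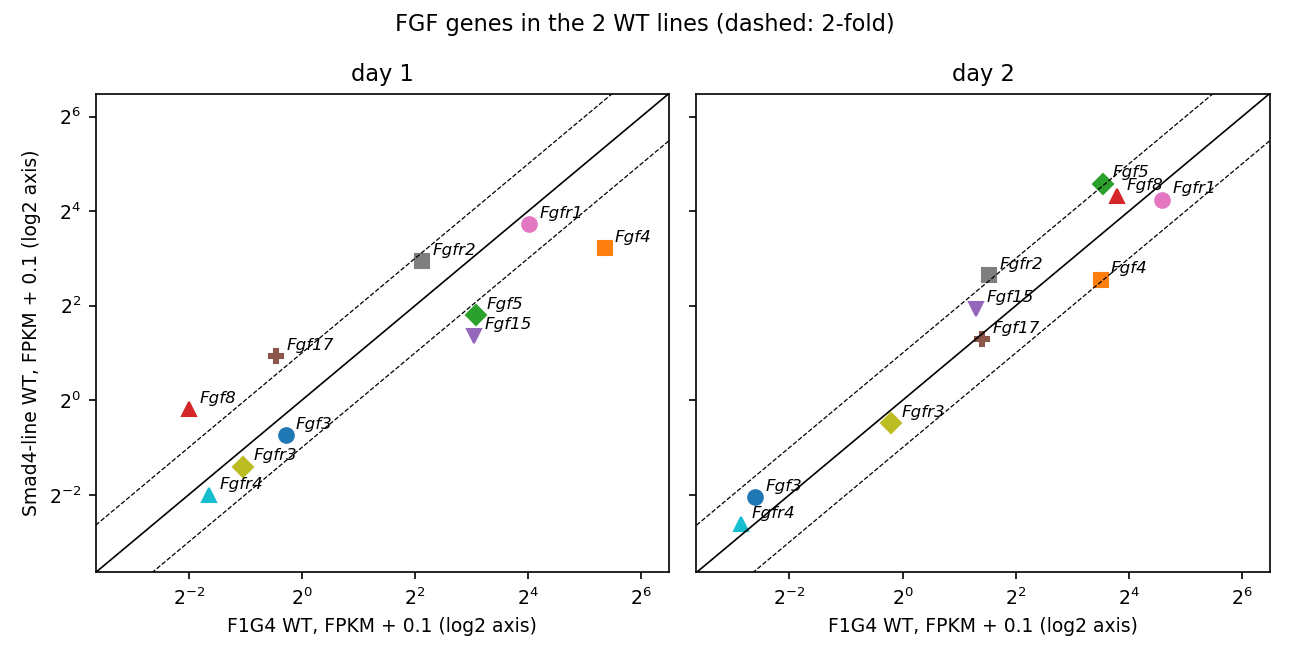
FPKM + 0.1 (both axes, log2 scale) of the 10 FGF genes in F1G4 WT cells (x axis) and Smad4-line WT cells (y axis) on day 1 (left) and day 2 (right), 1 point per gene, with equality solid and a 2-fold difference dashed. On day 1 *Fgf4*, *Fgf5* and *Fgf15* lie below the lower dashed line and *Fgf17* and *Fgf8* above the upper one, *Fgf8* with both values below FPKM 1.

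Over all 14 conditions, *Fgf8* ran from 55.3 FPKM in WT cells on day 3 through 19.8 in Smad4-line WT cells on day 2, 16.8 in *T* KO cells on day 3 and 13.7 in WT cells on day 2 down to 0.0172 in ES cells. Steps were set against the robust SD of the log2 ratios between the WT lines on day 2 at that level. For *Fgf8* the step from the first to the second of these conditions was larger than this SD, and the next 2 steps were not. Of the 13 steps between neighbours in such an order, 8 were larger than that SD for *Fgf8*, 7 for *Fgf5*, 5 for *Fgf4*, 3 for *Fgfr2* and 2 for *Fgfr1*, *Fgf15* and *Fgf17*. Such steps were not counted over all genes, so these counts do not set the FGF genes apart. The levels behind the steps were not scaled between tables, while the ratios behind the SD were. This SD also rests on a single pair of WT columns, which are among the 14 conditions. On day 1 this SD was larger in each of the 10 groups of genes (0.403 against 0.203 in the highest), and steps were not counted with it. *Fgf5* was highest in *Smad4* KO cells on day 2 (37.7 FPKM), *T* KO cells on day 3 (30.6) and WT cells on day 3 (26.0). *Fgfr1* kept within 10.0 to 51.7 FPKM and *Fgfr2* within 2.33 to 20.6 FPKM, whereas *Fgf4* spanned 3.16 to 71.0 FPKM.

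The genes whose log2 levels most resembled each FGF gene over the 14 conditions were taken from 9284 genes with FPKM of at least 5 in any of them. Such correlations are descriptions, since the conditions share a time course and lines. For *Fgf8* they included *Rtl8c* (Pearson r 0.94) and *Wnt8a* (0.91). *Wnt8a*, a WNT ligand gene of the streak, stood at 0.342 FPKM in ES cells, 17.7 and 41.7 FPKM on days 2 and 3 in WT cells and 0.419 FPKM in *Smad4* KO cells on day 2. In *Eomes* KO cells on day 3 *Wnt8a* was lower, at 20.7 against 43.5 FPKM (log2 ratio −1.08), where *Fgf8* had a log2 ratio of −5.54. It stood at 22.3 FPKM in *T* KO and 38.8 FPKM in dKO cells on day 3. On day 2 the 2 genes differed, with *Wnt8a* above the WT value at 25.5 FPKM in *Eomes* KO, 20.8 in *T* KO and 32.8 in dKO cells, where *Fgf8* was lower. The place of *Wnt8a* depended on the pseudocount of 0.1, since with a pseudocount of 1 it ranked 26 (r 0.83). *Rtl8c* was at 18.6 FPKM in WT and 2.32 FPKM in *Eomes* KO cells on day 3.

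*Fgf4* was most like *Zfp141* (0.93), *Chchd10* (0.93) and *Zfp980* (0.92), the last of which fell from 21.6 FPKM in ES cells to 0.387 FPKM on day 3. *Fgf17* was most like *Gjc1* (0.87), *Epha2* (0.86) and *Nanog* (0.85). *Nanog*, a pluripotency factor gene that is used again in the streak, showed the same dip, at 147.7 FPKM in ES cells, 16.1 on day 1 and 120.5 on day 2. *Fgf15* was most like *Trmt10c* (0.88), *Slc25a32* (0.83) and *Utf1* (0.81), and *Fgf5* like *Mycl* (0.85), *Pphln1* (0.85) and *Spata24* (0.85). For the receptors these genes were *Usp22* (0.98), *Mmp15* (0.97) and *Tgfbrap1* (0.97) for *Fgfr1*, and *Fignl2* (0.88), *Yipf2* (0.88) and *F2r* (0.86) for *Fgfr2*. Between the FGF genes themselves, the highest coefficients were those of *Fgfr1* and *Fgfr3* (0.74) and of *Fgf4* and *Fgf15* (0.71). These were found among far fewer genes and without the FPKM minimum, so they cannot be compared in size with the coefficients above.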

How the data were processed

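RNA-seq of 18 mouse samples in 14 groups was used. Groups follow the labels (4 of 2 samples, 10 of 1 sample), while the study's legends speak of averages of 2 replicates, so how many samples stand behind a KO value is unclear. The authors trimmed reads with cutadapt 2.9, aligned them with HISAT2 2.1.0 to mm10 and the refSeq annotation, used SAMtools 1.9, and computed FPKM with Cuffdiff 2.2.1, pooling each condition. Libraries were strand-specific (ScriptSeq). The deposited FPKM values came in 9 tables of 24538 genes, and their read depth is unknown, so no test, SD or interval was possible.

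Log2 ratios were taken within a table without a pseudocount, and no ratio was given against 0. Genes with FPKM above 1 in either group were examined, and those beyond a log2 ratio of 1 in size were called DE, including genes at 0 in one group. The WT lines, held in separate tables, were scaled to a median log2 ratio of 0. Medians and correlations used a pseudocount of 0.1. Medians over the FGF genes took in genes that were not examined, while those over all genes and over the pathway lists did not. All 10 FGF genes were named in every condition, with the targeted genes, up to 3 DE genes at each end of every pathway list, and the 3 genes most like each FGF gene that reached FPKM 5. Some further list genes are named to complete a count or a group, chosen after their values were seen, and a few genes that the rule names are not reported here. The members and lists were chosen with earlier results of these data known. GC content and length came from the longest GENCODE M21 transcript, in 20 equal groups of genes, a check added after seeing the data, and sequences and positions came from RefSeq (GRCm38.p6). The calling step was tested on simulated data in which only genes above FPKM 10 were changed, with the same noise at every level. That test does not bear on calls at low FPKM. Tables were handled in pandas 2.3.3 with numpy 2.4.6 under Python 3.11.15 and plotted with matplotlib 3.10.9.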

Additional observations from a re-analysis of the deposited data

Results flagged for a closer look

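In each of the comparisons below an FGF gene was past the DE limit at one time point, or in one WT line, and had the opposite sign at the other. None of these differences was tested, since each value is a single pooled column. Of 5 pairs of comparisons read for 10 genes, 8 gene and pair combinations were of this kind.

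With *Eomes* deleted, *Fgf15* had a log2 ratio of 1.09 on day 2, a call lost on the TPM scale and with a pseudocount of 1, and −0.85 on day 3. *Fgf3* had 2.60 on day 2, where both values lay below FPKM 1, and was listed at 0 on day 3 against 1.20 FPKM in WT cells. In these *Eomes* KO cells *Fgf17* had 0.55 on day 2 and −2.25 on day 3, and *Fgfr2* −0.051 on day 2 and 1.45 on day 3. *Fgf5* in *T* KO cells had −1.20 on day 2 and 0.22 on day 3. In dKO cells *Fgf3* had 2.05 on day 2, where both values lay below FPKM 1, and −2.27 on day 3. *Fgfr3* in dKO cells had −0.38 on day 2 and 1.02 on day 3. Between the WT lines, *Fgf15* went from day 1 to day 2 by −1.79 in F1G4 cells and by 0.56 in the Smad4 line.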

How the results depend on the processing

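Each of the 15 comparisons was recomputed under 8 alternatives, 2 of them (trends with GC content and with length removed) added after seeing the data. Of the 53 DE calls of FGF genes, 34 held under every alternative, and in the KO comparisons 14 of 27. No log2 ratio of a DE gene changed sign. The number of DE FGF genes moved by over 1.5 times in 12 cases. Without the FPKM minimum it was 4 in place of 2 for day 1 against ES cells, 7 in place of 4 for day 2 against day 1, 5 in place of 3 for *Eomes* KO cells on day 2 and 5 in place of 2 within the Smad4 line. With a minimum of FPKM 5 it was 1 in place of 2 for *Smad4* KO cells on day 1, 3 in place of 5 for *Eomes* KO cells on day 3, 2 in place of 4 for *T* KO cells on day 3 and 2 in place of 5 for dKO cells on day 3. With a pseudocount of 1 it was 1 in place of 2 for *Smad4* KO cells on day 1, 1 in place of 3 for *T* KO cells on day 2, 2 in place of 5 for dKO cells on day 3 and 1 in place of 2 between the WT lines on day 2. By construction these settings add, remove or shrink genes of low FPKM. *Fgf8* in *T* KO cells on day 2 was not DE with a pseudocount of 1 (−0.92), on the TPM scale (−0.89) or with the length trend removed (−0.82). *Fgfr1* passed the limit on the TPM scale with *Eomes* deleted on day 3 (1.12) and with *T* deleted on day 2 (1.04), and *Fgf4* in *Eomes* KO cells on day 2 after median scaling (1.00) or with either trend removed (1.00 and 1.04). The other settings changed no count by over 1.5 times. No paired analysis was possible because each condition is a single pooled column, and for the same reason no replicate could be left out.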
